A study of Mus musculus with 8 samples.

Results

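Prox1, Lyve1, Flt4, Pdpn, Vegfc and Reln, genes by which lymphatic endothelium is recognised or grows, were followed by symbol in a table of mRNA abundance in whole mouse uterus. All 6 were found among the 24963 genes listed, and 5 of them reached the mean of 0.5 FPKM that was asked of a tested gene; the exception was Prox1. FPKM is the number of fragments on a gene scaled to the length of the gene and to the total of the library. The uteri came from C57B6/J females taken at gestation day 3.5 (GD3.5), mated at 8 weeks by the labels. The 4 controls, Nr2f2 f/f, carried floxed Nr2f2 on both alleles and no Cre, and are labelled WT. The 4 mutants, Nr2f2 d/d, carried the same floxed alleles and 1 Pgr allele with Cre knocked in (Pgr Cre/+), and are labelled KO. The study's methods give vasectomized males as mates, so no embryo was present. Cre here follows Pgr, the progesterone receptor gene, which is read in epithelium, stroma and muscle of the uterus, and neither the labels nor the methods say whether lymphatic endothelium lost Nr2f2. The mutants also had 1 Pgr allele in use by Cre and the controls did not. Each of the 8 libraries is numbered as a separate sample of its group.

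Lymphatic vessels drain fluid and immune cells from tissue, and in the mouse uterus they are found mainly in the muscle layers. Their endothelium is set apart from that of veins when the homeobox factor PROX1 is switched on, in the embryo with the help of SOX18 and of NR2F2 (COUP-TFII). VEGF-C, released by surrounding cells, then binds its receptor VEGFR3, the product of Flt4, and drives sprouting and survival. LYVE1, a receptor for hyaluronan, and podoplanin, a mucin-like membrane protein that binds CLEC-2 on platelets, mark the mature surface. Reelin, a large secreted glycoprotein best known from the brain, is released by lymphatic endothelium and takes part in its exchange with the muscle cells of collecting vessels. Several of these genes are read in other cells too: Lyve1 in some macrophages, Pdpn in mesothelium and fibroblasts, Vegfc in stroma and blood endothelium. In RNA of whole tissue, fewer cells of a type and less RNA per cell cannot be told apart.

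RefSeq promoter sequences (GRCm38.p6) were found for 5 of the 6 members; Lyve1 had no entry. The 250 bases before the start are shown for Vegfc, the ligand, Prox1, the identity gene, Reln, the member with the largest log2 difference, and Pdpn, the most abundant member. Capitals mark AGGTCA or GGGTCA, forms of the core element that NR2F2 and related nuclear receptors bind, read on both strands.
Vegfc, chr8:54077282-54077531, plus strand: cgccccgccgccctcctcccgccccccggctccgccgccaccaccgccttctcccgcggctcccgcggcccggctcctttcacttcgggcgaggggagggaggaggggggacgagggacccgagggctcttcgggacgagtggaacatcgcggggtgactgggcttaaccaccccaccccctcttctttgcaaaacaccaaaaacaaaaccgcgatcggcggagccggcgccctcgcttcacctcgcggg
Prox1, chr1:190170828-190171077, minus strand: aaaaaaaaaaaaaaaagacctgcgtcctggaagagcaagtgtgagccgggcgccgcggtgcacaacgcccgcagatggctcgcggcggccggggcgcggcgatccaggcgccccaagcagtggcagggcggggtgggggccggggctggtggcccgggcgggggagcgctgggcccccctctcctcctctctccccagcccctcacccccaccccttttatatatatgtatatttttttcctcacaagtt
Reln, chr5:22344706-22344955, minus strand: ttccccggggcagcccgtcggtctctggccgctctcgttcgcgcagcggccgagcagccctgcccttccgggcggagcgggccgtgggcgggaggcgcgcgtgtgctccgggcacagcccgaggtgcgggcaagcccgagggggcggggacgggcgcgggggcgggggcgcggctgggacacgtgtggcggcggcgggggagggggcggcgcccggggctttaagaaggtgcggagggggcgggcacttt
Pdpn, chr4:143299565-143299814, minus strand: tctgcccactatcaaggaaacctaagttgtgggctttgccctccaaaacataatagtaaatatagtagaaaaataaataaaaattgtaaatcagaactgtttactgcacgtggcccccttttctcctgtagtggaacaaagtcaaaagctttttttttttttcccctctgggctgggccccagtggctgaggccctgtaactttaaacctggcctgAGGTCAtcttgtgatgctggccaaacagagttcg
The Pdpn promoter held AGGTCA on its own strand, from position -34 to -29 before the start, and 14% of 32851 mouse promoters of this length hold it. GGGTCA stood in the Flt4 promoter on the opposite strand, from -62 to -57, and is found in 11.6% of promoters. Neither form occurred in the windows of Vegfc, Reln or either start of Prox1. Of the other motifs searched on both strands, CCGGAA (the ETS core) occurred in Reln from -185 to -180 and is held by 12% of promoters. AGAACA, a core element of the progesterone receptor held by 16.1%, and AACAAT, a SOX core held by 9.42%, had no match in these windows. The motifs share no position with each other in the members. The promoter of Pdpn was the poorest in G and C, at 43.2% with 2 CG dinucleotides, against 71.6% and 30 in Vegfc, 64.8% and 20 in the Prox1 window shown and 80.0% and 37 in Reln, and against medians of 52.4% and 6 over all promoters.

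The libraries held 61460000 to 92590000 fragments, recovered from the steps of low values, with medians of 62335000 in Nr2f2 f/f, against 81000000 in Nr2f2 d/d. Nr2f2, the targeted gene, was at 21.8 to 25.7 FPKM in Nr2f2 f/f, against 6.90 to 9.74 FPKM in Nr2f2 d/d (log2 difference -1.39, adjusted p = 0.00549), so 37.1% of the control mean remained, in cells that whole tissue does not tell apart. Pgr, expressed by most cells of the uterus, was at 11.4 to 33.9 FPKM in the 8 libraries and its groups overlapped (log2 difference 0.48, adjusted p = 0.318; 0.26 without Nr2f2 f/f replicate 2). Nr2f2 f/f replicate 2 stood apart from the other controls, with Pearson correlations of 0.933 to 0.959 across genes against 0.973 to 0.989 among the other 3, and the mutants had 0.942 (replicates 3 and 4) to 0.985 with each other. Results that rest on 1 of these libraries are also given without it. Of the markers of lymphatic endothelium, all 6 members and Mmrn1 were detected in every library, whereas Ccl21a, Ccl21b and Ccl21c, chemokines of lymphatic vessels with near-identical copies in the mouse genome, were listed at 0 in every library.

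For none of the lymphatic endothelial genes did mutant and control uteri differ at an adjusted p under 0.05. The fit was limma on log2(FPKM + 0.5), a scale that understates the change of genes near or under 0.5 FPKM. In it 0 of the 5 tested members passed, with 2.62% of all 14323 tested genes passing in either direction. In 5 of the 6 members mutant uteri had the higher mean, and in Vegfc the lower one. An unadjusted p under 0.05 was reached by 1 of the 5, Reln, and by 21.2% of tested genes. At the study's own threshold, which adds to that p a minimum fold of 1.4, 1 of 5 tested members was called, again Reln, higher in Nr2f2 d/d, with 4.7% of tested genes called higher and 8.8% called in either direction. In 0 of the 6 members did the 4 mutant values lie apart from the 4 control values, as they did in 15.4% of tested genes. Since 4 uteri against 4 allow 70 arrangements, 0.0286 is the smallest p that the exact permutation test of 1 gene can give. The median log2 difference of the 5 tested members was 0.25, beside -0.02 over all tested genes.

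**Figure D1:**
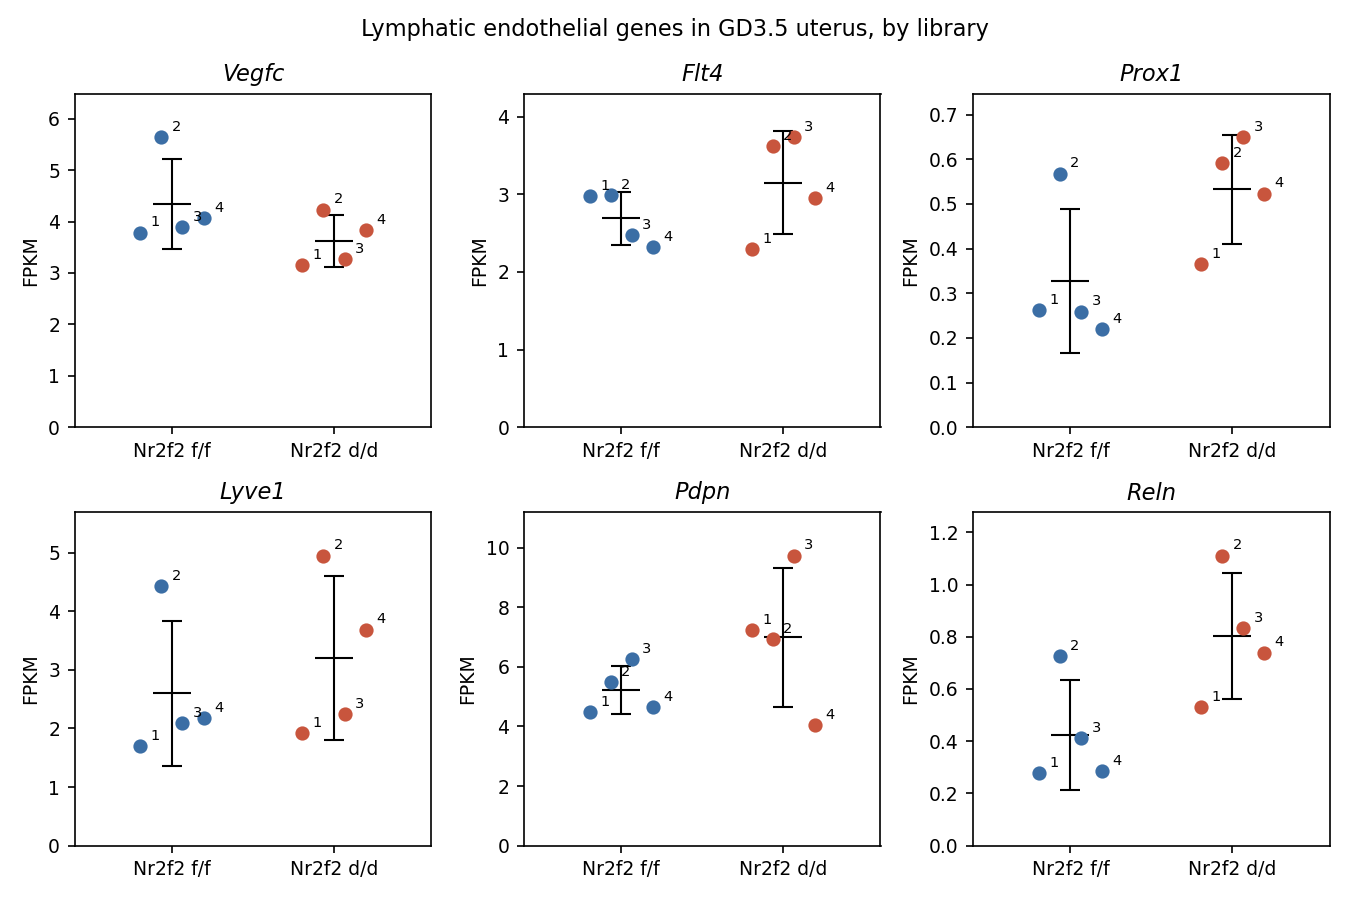
FPKM (linear axis from 0) of the 6 lymphatic endothelial genes in each uterus, with the replicate number beside each point; black bars are the mean and SD of 4 libraries. Every panel overlaps between Nr2f2 f/f (blue) and Nr2f2 d/d (red), and Nr2f2 f/f replicate 2 is the highest control for 5 of the 6 genes, the exception being Pdpn.

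Vegfc, on chr8:54077606-54187096 of mm10 (plus strand), encodes the growth factor that acts on lymphatic endothelium. It measured 3.79, 5.65, 3.89 and 4.06 FPKM in control replicates 1 to 4, and 3.15, 4.23, 3.27 and 3.84 FPKM in mutant replicates 1 to 4. The groups overlapped, and Nr2f2 f/f replicate 2 lay well above the other 7 uteri. Means were 4.35 ± 0.873 FPKM in Nr2f2 f/f, against 3.62 ± 0.506 FPKM in Nr2f2 d/d (SD, n = 4). The log2 difference was -0.23 ± 0.14 (SE), with a 95% interval of -0.55 to 0.10 and an adjusted p of 0.393, and the exact permutation test gave p = 0.229. Without Nr2f2 f/f replicate 2 the difference was -0.11.

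Flt4 encodes VEGFR3, the receptor for VEGF-C, and lies on chr11:49609263-49652739 (plus strand). Control uteri gave 2.97, 2.99, 2.48 and 2.32 FPKM, and mutant uteri gave 2.30, 3.62, 3.74 and 2.95 FPKM. Nr2f2 d/d replicates 2 and 3 exceeded all controls, and Nr2f2 d/d replicate 1 was below all of them, so the mutant group spread to both sides. With means of 2.69 ± 0.344 and 3.15 ± 0.667 FPKM (SD, n = 4), the log2 difference was 0.18 ± 0.15 (SE; 95% interval -0.16 to 0.53; adjusted p = 0.521; exact permutation p = 0.400). Leaving out Nr2f2 d/d replicate 1 moved it to 0.30, with an adjusted p of 0.272, and leaving out Nr2f2 d/d replicate 3 to 0.10, with an adjusted p of 0.742. The interval includes 0 and ends below a doubling of Flt4 on this scale.

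Prox1, the homeobox gene of lymphatic identity on chr1:190118035-190170714 (minus strand), was the least abundant of the 6 and rested on 113 to 505 fragments per library at its annotated length. It was at 0.262, 0.568, 0.259 and 0.219 FPKM in Nr2f2 f/f, against 0.365, 0.592, 0.650 and 0.523 FPKM in Nr2f2 d/d. Of the controls, 3 lay below every mutant, and Nr2f2 f/f replicate 2 lay among the mutants. The means were 0.327 ± 0.162 and 0.533 ± 0.123 FPKM (SD, n = 4). Its fit came from all 21070 genes with any signal, since Prox1 was below the filter, and 1.55% of those genes passed an adjusted p of 0.05. There the log2 difference was 0.33 ± 0.14 (SE), with a 95% interval from -0.0036 to 0.67, an adjusted p of 0.276 and an exact permutation p of 0.0857. Without Nr2f2 f/f replicate 2 it was 0.46 with an adjusted p of 0.0891, and without Nr2f2 d/d replicate 3 it was 0.28 with an adjusted p of 0.422. On 1.6% of its exon bases Prox1 overlaps the antisense gene Prox1os, whose reads cannot be told apart without strand.

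Lyve1, which encodes the hyaluronan receptor of lymphatic capillaries, lies on chr7:110850607-110863239 (minus strand). Nr2f2 f/f uteri gave 1.70, 4.44, 2.09 and 2.18 FPKM, and Nr2f2 d/d uteri gave 1.93, 4.95, 2.25 and 3.69 FPKM. Each group had 1 uterus above 4 FPKM, and the lowest values of both groups lay close together. The spread within a group was 2.61-fold from lowest to highest in Nr2f2 f/f and 2.57-fold in Nr2f2 d/d, which was wider than the difference between means (2.60 ± 1.24 and 3.20 ± 1.39 FPKM, SD, n = 4). On the log2 scale the difference was 0.25 ± 0.33 (SE; 95% interval -0.49 to 1.00; adjusted p = 0.690; exact permutation p = 0.514), an interval that includes a doubling. Without Nr2f2 f/f replicate 2 it was 0.50 with an adjusted p of 0.356, and without Nr2f2 d/d replicate 2 it was 0.04 with an adjusted p of 0.962. Macrophages, some of which carry Lyve1, gave 0 of 14 tested markers past the adjusted threshold of limma. At an unadjusted p under 0.05 there were 3, with 21.2% of all tested genes. The median log2 difference was 0.28 (0.15 when Nr2f2 f/f replicate 1 was left out, 0.45 when replicate 3 was). Summed levels were 293.5 to 556.3 FPKM in Nr2f2 f/f, against 437.2 to 735.4 FPKM in Nr2f2 d/d. Of that list, Folr2, a folate receptor of resident macrophages, had means of 3.36 and 2.13 FPKM (adjusted p = 0.165), F13a1 had a log2 difference of -0.61 (adjusted p = 0.0745) and Lyz2, which encodes lysozyme, one of 0.87 (adjusted p = 0.153). Over the 8 uteri, the deviation of Lyve1 from its group mean had r = -0.04 with that of the macrophage list.

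Pdpn, the podoplanin gene on chr4:143267431-143299564 (minus strand), was the most abundant member. Its values were 4.49, 5.49, 6.26 and 4.66 FPKM in Nr2f2 f/f, and 7.23, 6.94, 9.73 and 4.05 FPKM in Nr2f2 d/d. Of the mutants, 3 exceeded all controls and the last, Nr2f2 d/d replicate 4, was the lowest of all 8 uteri. Means were 5.23 ± 0.816 and 6.99 ± 2.32 FPKM (SD, n = 4), and the log2 difference was 0.34 ± 0.23 (SE; 95% interval -0.19 to 0.87; adjusted p = 0.429; exact permutation p = 0.229). This value depended on single mutants: without Nr2f2 d/d replicate 4 it was 0.56, with an unadjusted p of 0.00845 and an adjusted p of 0.112, past the study's threshold, and without Nr2f2 d/d replicate 3 it was 0.17, with an adjusted p of 0.679. Summed markers of mesothelium, the outer lining of the uterus, which carries Pdpn, were at 146.7 to 180.3 FPKM in Nr2f2 f/f, against 228.6 to 324.5 FPKM in Nr2f2 d/d, with no overlap. Without Krt19, a keratin that the epithelial list also holds, they were at 78.9 to 107.9 FPKM, against 103.0 to 129.0 FPKM, and overlapped. Among 10 tested mesothelial markers, 8 were higher and 0 lower at an unadjusted p under 0.05, with 8.66% of tested genes higher. Of the 10, 4 lay wholly above the controls, as 5.49% of tested genes did. The adjusted threshold was passed by 1, Msln (mesothelin, log2 difference 0.80, adjusted p = 0.0398). Krt19 was at 1.396 (adjusted p = 0.0559) and Bnc1 at 0.78 (adjusted p = 0.0726), with a list median of 0.47. Wt1, the 1 tested marker with a negative difference, was at -0.31 (adjusted p = 0.257), with overlap. Stromal markers summed to 1945 to 2239 FPKM in Nr2f2 f/f, against 2684 to 5079 FPKM in Nr2f2 d/d, again without overlap: the matrix genes Dcn (0.79, adjusted p = 0.0192) and Col1a2 (1.46, adjusted p = 0.0484) rose and the decidual factor Hand2 fell (-0.71, adjusted p = 0.0388). Without the collagen genes Col1a1, Col1a2 and Col3a1 the stromal sums overlapped, at 1183 to 1500 FPKM, against 1350 to 1458 FPKM, and the median of the 12 tested stromal genes was -0.08. Epithelial markers also summed higher in Nr2f2 d/d (902.0 to 1040 FPKM) than in Nr2f2 f/f (740.2 to 778.7 FPKM). Krt8 was past the threshold (0.74, adjusted p = 0.00829) among 9 tested, whose median was 0.06. The other most abundant ones, Cldn3 (0.01, adjusted p = 0.992) and Krt18 (0.06, adjusted p = 0.889), had groups that overlapped. Without Krt19 the epithelial sums overlapped too, at 646.4 to 739.8 FPKM in Nr2f2 f/f, against 696.1 to 914.4 FPKM in Nr2f2 d/d. With single libraries left out, Krt8 stayed under an adjusted p of 0.05 in 8 of 8 fits, Dcn in 4, Col1a2 and Hand2 in 2 and Msln in 1. The call of Col1a2 also ended with quantile normalization (adjusted p = 0.0620). The part of these cells in the Pdpn values was not tested.

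Reln, the reelin gene on chr5:21884454-22344702 (minus strand), had the largest log2 difference among the 6 with all libraries in. Without Nr2f2 d/d replicate 4 that of Pdpn was larger (0.56, against 0.52 for Reln). Reln measured 0.277, 0.727, 0.411 and 0.285 FPKM in Nr2f2 f/f, against 0.530, 1.11, 0.832 and 0.739 FPKM in Nr2f2 d/d. Of the mutants, 3 lay above every control, and Nr2f2 d/d replicate 1 lay below Nr2f2 f/f replicate 2 alone. The mutant mean was 0.803 ± 0.241 FPKM against 0.425 ± 0.211 FPKM (SD, n = 4), or 189% of the control mean. On the log2(FPKM + 0.5) scale the difference was 0.50 ± 0.20 (SE), a fold of 1.42, with a 95% interval of 0.053 to 0.95, an unadjusted p of 0.0327 and an adjusted p of 0.198. The exact permutation test gave p = 0.0571. The call at the study's threshold was lost without Nr2f2 f/f replicate 1, 3 or 4 (unadjusted p of 0.0845, 0.0606 and 0.0836) and without Nr2f2 d/d replicate 2, 3 or 4 (0.0912, 0.0656 and 0.0528). It was held without Nr2f2 f/f replicate 2 (log2 difference 0.65, adjusted p = 0.0981) and without Nr2f2 d/d replicate 1 (0.61, adjusted p = 0.197). Its length of 23738 exon bases gave 415 to 1880 fragments per library even at these low values, and 1.0% of those bases overlap the antisense gene Gm10475.

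By level in FPKM, which corrects for gene length, the order in Nr2f2 f/f was Pdpn (mean 5.23), Vegfc (4.35), Flt4 (2.69), Lyve1 (2.60), Reln (0.425) and Prox1 (0.327). Vegfc and Flt4, and Lyve1 and Reln, were neighbours in this order whose 4 values did not overlap. Pdpn and Vegfc, Flt4 and Lyve1, and Reln and Prox1 overlapped. In Nr2f2 d/d, Lyve1 (3.20) stood above Flt4 (3.15), with ranges that overlapped, and the rest of the order was the same. Flt4 and Reln were the only neighbours there with separate ranges, so that in both genotypes the transcription factor and reelin lay under the receptor, the ligand and the surface markers.

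The comparison with endothelium of every kind placed the members beside a list that fell. Of 20 pan-endothelial markers, 8 fell at an adjusted p under 0.05, with 1.53% of tested genes falling and 1.09% rising, and 0 rose; 14 lay wholly below the controls, as 9.91% of tested genes did. Cdh5, the cadherin of endothelial junctions, had a log2 difference of -0.99 (adjusted p = 0.0149), Esam, an adhesion molecule, one of -0.74 (adjusted p = 0.0151), and Pecam1 (CD31) one of -0.90 (adjusted p = 0.0192). These 3 had the smallest p of the list. Another 3 of the 20 had positive differences and overlapped: Sox17 (0.13, adjusted p = 0.880), Cldn5 (0.10, adjusted p = 0.897) and Cd34 (0.02, adjusted p = 0.952). The list median was -0.69, and its summed level was 793.5 to 975.5 FPKM in Nr2f2 f/f, against 571.5 to 697.1 FPKM in Nr2f2 d/d. In 16 markers of blood endothelium the median was -0.47 and 3 fell, the mucin Emcn (-0.70, adjusted p = 0.0303), the apelin receptor Aplnr (-1.17, adjusted p = 0.0328) and the nitric oxide synthase Nos3 (-0.67, adjusted p = 0.0335). Several genes stand in more than 1 list, among them Emcn, Kdr, Sox18 and Tie1, which are also pan-endothelial markers, so the lists are not independent. With single libraries left out, Cdh5 and Esam stayed under 0.05 in 5 of 8 fits, Pecam1 in 4, and Emcn, Aplnr and Nos3 in 2 each, with adjusted p of at most 0.105.

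**Figure D2:**
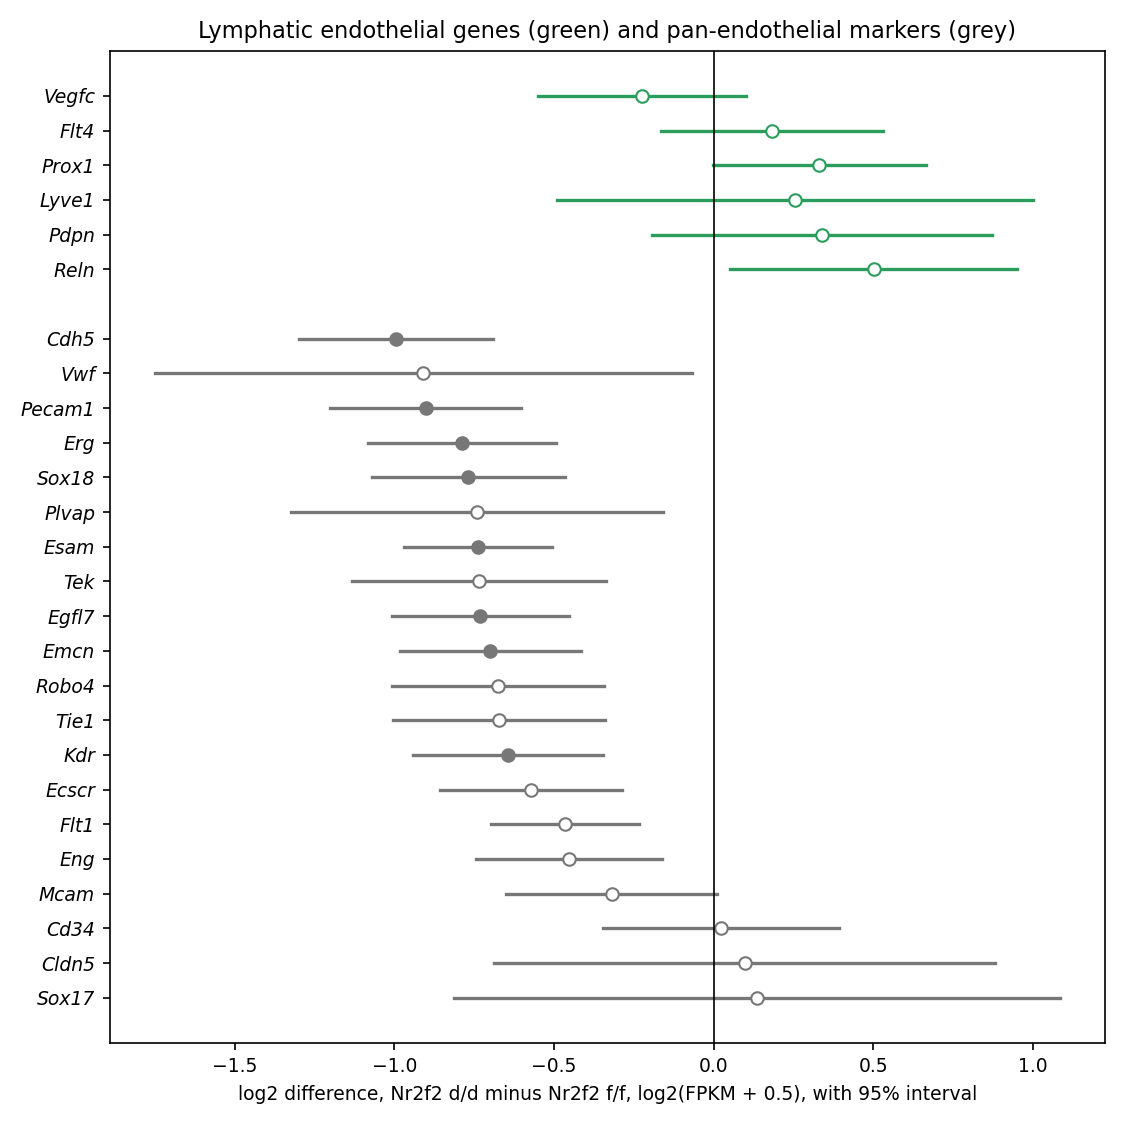
Log2 difference (Nr2f2 d/d minus Nr2f2 f/f, on log2(FPKM + 0.5)) with its 95% interval for the 6 lymphatic endothelial genes (green) and 20 pan-endothelial markers (grey); filled points have an adjusted p under 0.05. Of the markers, 17 lie below 0 and 8 are filled, whereas 5 of the 6 lymphatic genes lie above 0 and none is filled.

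Each member was then set against the mean of the 20 pan-endothelial markers in its own library. That mean was 4.996 ± 0.174 in Nr2f2 f/f, against 4.418 ± 0.122 in Nr2f2 d/d on the log2 scale (SD, n = 4), a difference of -0.58. Measured so, Reln was 1.08 higher in Nr2f2 d/d, Prox1 0.91 higher and Flt4 0.76 higher, each without overlap and at the smallest exact permutation p of 0.0286. Pdpn was 0.92 higher (exact permutation p = 0.0571), Lyve1 0.83 higher (exact permutation p = 0.0857) and Vegfc 0.35 higher (exact permutation p = 0.0857), and these overlapped. Vegfc was 0.22 higher without Nr2f2 f/f replicate 1, and Lyve1 0.59 higher without Nr2f2 d/d replicate 2. For Flt4 the 4 controls ran from -3.44 to -3.20 and the 4 mutants from -2.82 to -2.28. A share of 3 of 6 without overlap is near that of all tested genes, of which 57.9% were higher without overlap on this relative scale and whose median was 0.56. Without Nr2f2 d/d replicate 2, Prox1 (0.85) and Reln (0.94) were at an exact permutation p of 0.0571, and without Nr2f2 d/d replicate 4 Pdpn was at 1.16 and p = 0.0286, in both cases the smallest or next to smallest that 35 arrangements allow.

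From the lowest to the highest uterus of a group, Reln ran over 2.62-fold in Nr2f2 f/f and 2.10-fold in Nr2f2 d/d, Prox1 over 2.59-fold and 1.78-fold, and Pdpn over 1.39-fold and 2.40-fold. Flt4 (1.29-fold and 1.63-fold) and Vegfc (1.49-fold and 1.34-fold) had narrower ranges. For Vegfc, Flt4, Prox1, Lyve1 and Reln, Nr2f2 f/f replicate 2 was the highest control, and Nr2f2 d/d replicate 1 was the lowest mutant. After the group means were taken off on the log2 scale, the deviations of Vegfc and Lyve1 over the 8 uteri had a Pearson correlation of 0.98 (Spearman 0.98), and still 0.96 when the 2 uteri farthest from the median of Vegfc were left out. Prox1 and Reln had 0.89 (Spearman 0.86), and 0.89 without the 2 uteri farthest out for Prox1. Vegfc with Reln had 0.87, but 0.34 without the 2 farthest uteri, and Vegfc with Prox1 had 0.78 and then 0.28, so these rest on those libraries. Flt4 went with Prox1 at 0.75 (0.53 without 2 uteri), and with Vegfc it had 0.42 but -0.0040 without 2 uteri. Pdpn had -0.22 to 0.24 with the other 5 over the 8 uteri, but without the 2 farthest uteri of each pair it had -0.72 with Vegfc, -0.67 with Lyve1, -0.28 with Prox1, 0.35 with Reln and 0.48 with Flt4. With the mean of the mesothelial list Pdpn had 0.18 (Spearman -0.29), with the macrophage list 0.29, with the pan-endothelial list -0.17, with the stromal list 0.83, with the epithelial list 0.73 and with smooth muscle -0.68. These are descriptions over 8 points that share a library's depth, its tissue make-up and, within each group, a genotype.

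**Figure D3:**
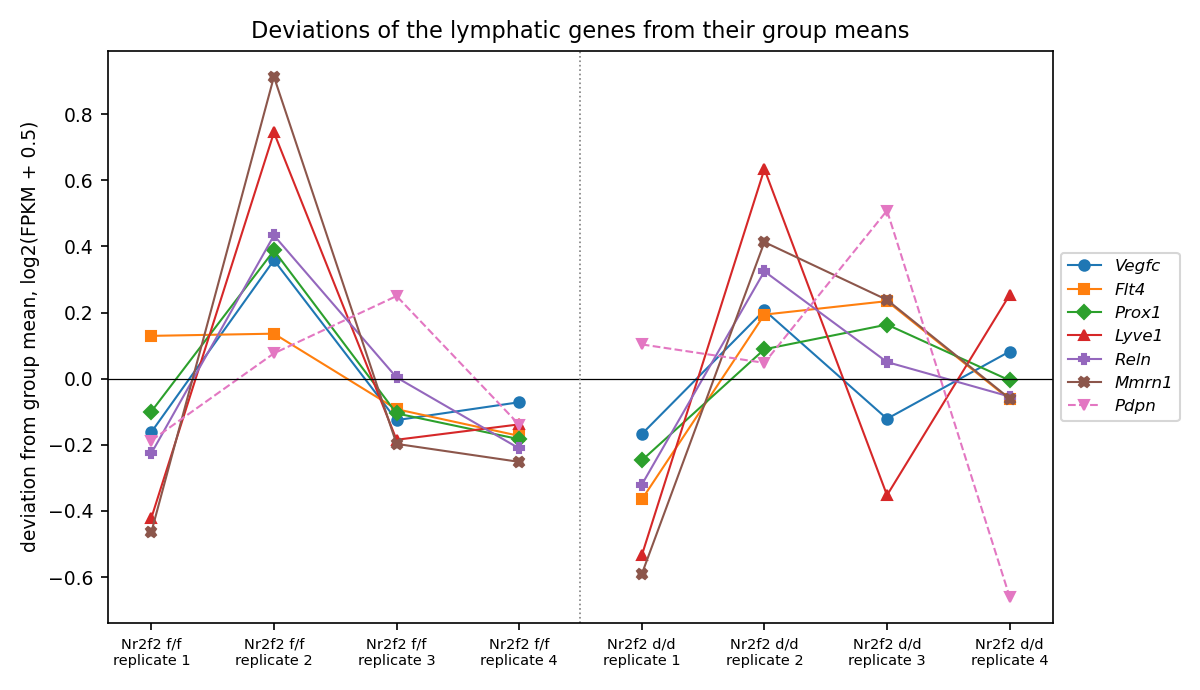
Deviation of each gene from its group mean (log2(FPKM + 0.5)) in the 8 uteri, which have no order within a group; lines join the points of 1 gene for reading. Nr2f2 f/f replicate 2 and Nr2f2 d/d replicate 2 are high, and replicate 1 of Nr2f2 d/d low, for Vegfc, Prox1, Lyve1, Reln and Mmrn1, while Pdpn (dashed) is lowest in Nr2f2 d/d replicate 4.

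Among 7 genes of lymphatic endothelium, its valves and its growth factors that are no members, likeness to the members in these deviations varied. Mmrn1, the gene of multimerin 1, a matrix protein of lymphatic endothelium and platelets, measured 1.32, 4.23, 1.69 and 1.61 FPKM in Nr2f2 f/f, against 1.88, 4.28, 3.73 and 2.94 FPKM in Nr2f2 d/d. It was again highest among controls in replicate 2 and lowest among mutants in replicate 1, and its groups overlapped (log2 difference 0.51, adjusted p = 0.404; 0.82 and adjusted p = 0.121 without Nr2f2 f/f replicate 2). Its deviations had a correlation of 0.96 with those of both Reln and Prox1 (0.90 for each without the 2 farthest uteri), and of 0.87 with Vegfc, which dropped to 0.42 without them. Cldn11, a tight junction gene of lymphatic valves that stayed under 0.5 FPKM in all 8 uteri, had 0.95 with Prox1 and 0.94 with Reln. With Prox1 and Reln, over the 8 uteri, Slco2b1 had 0.64 and 0.54, Foxc2 0.59 and 0.42, Vegfd 0.29 and 0.27, Ackr4, an atypical chemokine receptor, 0.20 and 0.06, and Klhl4 0.08 and -0.28. These values moved when the 2 farthest uteri were left out: Slco2b1 then had -0.11 and 0.25, Foxc2 0.41 and 0.90, Vegfd 0.53 and 0.09, Ackr4 -0.68 and -0.55, and Klhl4 -0.18 and -0.42. Vegfd had 0.61 with Vegfc and 0.63 with Lyve1, and then 0.92 and 0.89. By a search of all tested genes, those nearest to each member were Basp1, Lyve1 and Tmc8 for Vegfc (0.98 each), Rnd1, Plk3 and Nr2f1 for Flt4 (0.96, 0.96 and 0.95), and Per2, Cma1 and Golph3l for Prox1 (0.99, 0.98 and 0.97). They were Vegfc, Habp4 and Ski for Lyve1 (0.98, 0.98 and 0.97), Mal2, Gpr89 and Foxl2 for Pdpn (0.98, 0.97 and 0.97), and Ssbp2, Mmrn1 and Nudt6 for Reln (0.97, 0.96 and 0.95). In so few uteri close matches are common: 10 tested genes passed 0.9 with Flt4, 16 with Reln and 84 with Pdpn.

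Around Vegfc and Flt4, the genes that process VEGF-C and receive it were more often lower than higher. Of 16 tested genes of this axis, 11 had a negative and 5 a positive difference, and the median was -0.29. At an adjusted p under 0.05, 1 rose and 2 fell, with 1.09% of all tested genes rising and 1.53% falling. At an unadjusted p under 0.05, 2 were higher and 8 lower, with 21.2% of all tested genes in either direction. Adamts3, the protease that cuts VEGF-C into its active form, rose from 0.834 to 0.970 FPKM in the controls to 1.5 to 1.77 FPKM in the mutants (log2 difference 0.63, adjusted p = 0.0189). Nrp2, the coreceptor of VEGFR3, fell from 4.86 to 5.39 FPKM to 2.95 to 3.19 FPKM (-0.65, adjusted p = 0.00795), and Kdr, which encodes VEGFR2, fell from 11.3 to 16.2 FPKM to 7.79 to 10.5 FPKM (-0.64, adjusted p = 0.0457). The call of Kdr ended after median-ratio scaling (adjusted p = 0.0519), with quantile normalization (0.0520 adjusted) and without the filter (0.0603 adjusted), and under either scaling 7 pan-endothelial markers were called. The groups of Adamts3, Nrp2 and Kdr, chosen as the smallest p of the list, were apart. Over the 16 tested genes, 1 lay wholly above the controls and 4 wholly below, and 15.4% of all tested genes lay apart. Vegfd, the other ligand of VEGFR3, was at 4.80 to 7.35 FPKM in Nr2f2 f/f, against 2.99 to 7.51 FPKM in Nr2f2 d/d, with overlap (-0.47, adjusted p = 0.348). Of the mutants, 3 lay below every control and Nr2f2 d/d replicate 4 above all of them, and without that uterus the difference was -0.73 (unadjusted p = 0.00313, adjusted p = 0.0765). Ccbe1, a secreted partner of ADAMTS3, gave -0.29 (adjusted p = 0.214). With each library left out in turn, Nrp2 stayed under 0.05 in 8 of 8 fits, Adamts3 in 4 (highest adjusted p of 0.0724) and Kdr in 2 (highest 0.139).

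Beside Prox1, the transcription factors of lymphatic fate and valves gave 1 gene that rose and 4 that fell among 14 tested, with a median of 0.01. The threshold was an adjusted p under 0.05, at which 1.09% of all tested genes rose and 1.53% fell. Nr2f2, the deleted gene, is among the 4, and the design fixed its fall. Nr2f1, the paralog of Nr2f2, rose from 0.834 to 1.02 FPKM to 1.87 to 2.86 FPKM (log2 difference 1.00, adjusted p = 0.0149). Nr2f2 itself fell, as did Hoxd8, a homeobox gene linked to Prox1 (-0.58, adjusted p = 0.0194), Hoxd3 (-0.90, adjusted p = 0.0201) and Sox18 (-0.77, adjusted p = 0.0281). Foxc2, the forkhead gene of lymphatic valves, lay under the filter of 0.5 FPKM, so no limma p is given for it. It was at 0.139 to 0.245 FPKM in Nr2f2 f/f, against 0.327 to 0.851 FPKM in Nr2f2 d/d. Its groups did not overlap (exact permutation p = 0.0286, the smallest possible), as those of 15.4% of tested genes did not. With single libraries left out, Nr2f1 stayed under 0.05 in 7 of 8 fits (highest adjusted p of 0.0636), Hoxd3 in 6 (0.0740), Hoxd8 in 4 (0.0661) and Sox18 in 2 (0.0876).

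**Figure D4:**
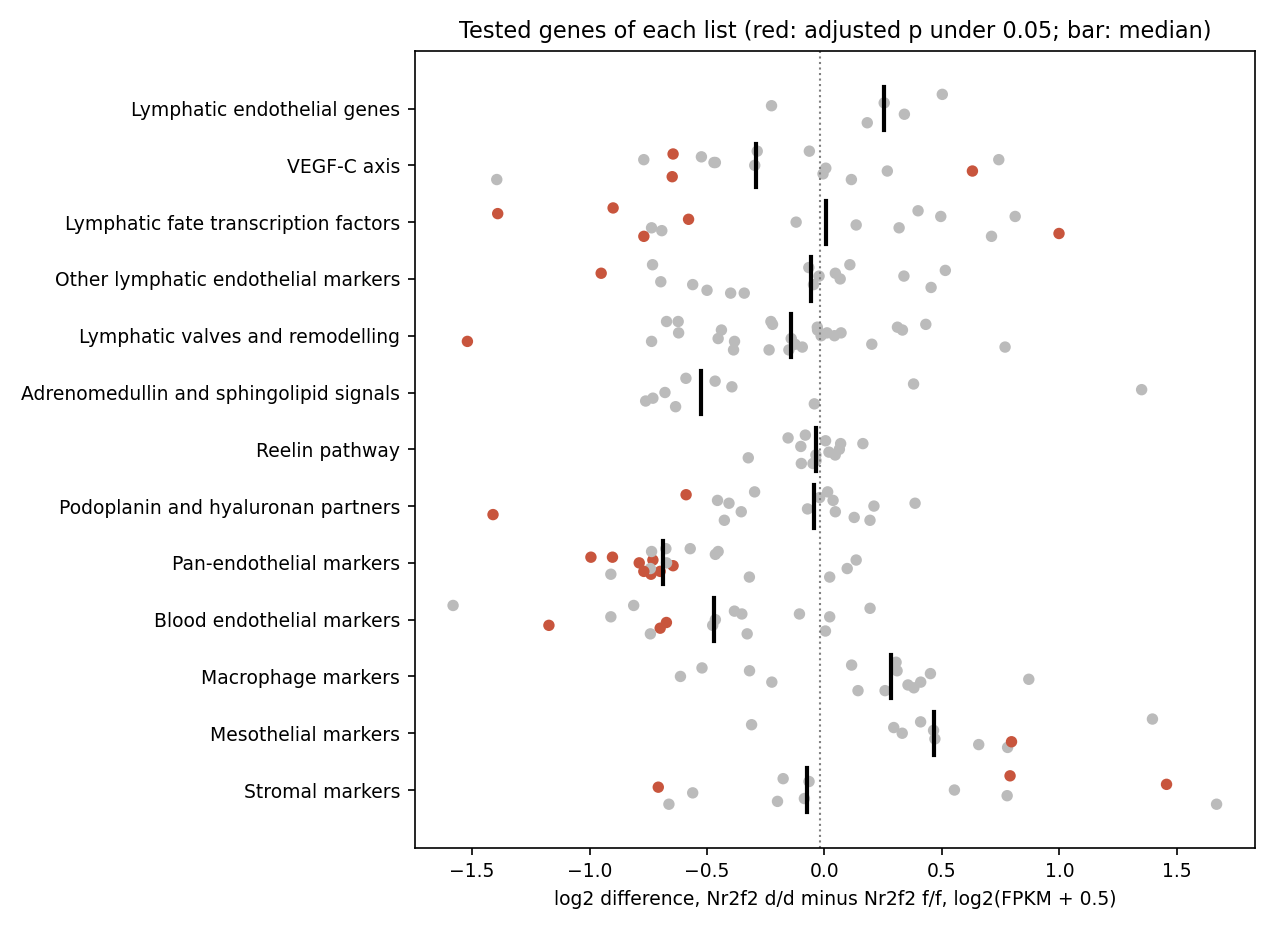
Log2 difference (Nr2f2 d/d minus Nr2f2 f/f, on log2(FPKM + 0.5)) of the tested genes of 13 lists, with 1 point a gene; red points have an adjusted p under 0.05, black bars are list medians and the dotted line is the median of all tested genes, -0.02. The lymphatic genes have a median of 0.25 and no red point, and the pan-endothelial list a median of -0.69.

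Among 16 other tested markers of lymphatic endothelium, 0 rose and 1 fell at an adjusted p under 0.05, with 1.09% of all tested genes rising and 1.53% falling. The list median was -0.06 (-0.095 to -0.046 with a library left out). The gene that fell was Slco2b1, a transporter of organic anions, from 6.27 to 8.96 FPKM to 3.23 to 3.65 FPKM (log2 difference -0.95, adjusted p = 0.00986), and it stayed under 0.05 in 7 of 8 fits with a library left out (highest adjusted p of 0.0561). Klhl4 was at -0.50 (adjusted p = 0.0742) and Thy1, a surface glycoprotein shared with stroma, at -0.56 (adjusted p = 0.161). Stab2 and Nts, a scavenger receptor and a peptide of lymphatic endothelium, stayed under 0.3 FPKM in all 8 uteri. Genes of valves and remodelling gave 1 that fell among 27 tested and a median of -0.14 (-0.22 to -0.11 with a library left out). Fn1, fibronectin, fell by 1.52 on the log2 scale (adjusted p = 0.00703). Of the others, the receptor genes Tie1 (-0.67, adjusted p = 0.0526) and Acvrl1 (-0.39, adjusted p = 0.0628) were next by p. Genes of adrenomedullin and sphingosine 1-phosphate signalling, which promote lymphatic growth and stability, gave 0 of 10 past the adjusted threshold of limma, 6 at an unadjusted p under 0.05 (5 lower and 1 higher) and a median of -0.53 (-0.35 without Nr2f2 f/f replicate 2), with S1pr1 at -0.76 (adjusted p = 0.0509), Ramp2 at -0.59 (adjusted p = 0.0516) and S1pr3 at -0.47 (adjusted p = 0.0656). The higher one was Ramp3, a receptor partner of adrenomedullin signalling, at 1.35 (unadjusted p = 0.0377, adjusted p = 0.210), with groups that overlapped.

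The partners of Reln, Lyve1 and Pdpn were looked at in turn. In the reelin pathway 0 of 14 tested genes passed the adjusted threshold of limma, and 2 had an unadjusted p under 0.05, with 21.2% of all tested genes. The median was -0.04 (-0.085 to -0.010 with a library left out). Vldlr, a reelin receptor, was at 7.92 to 15.3 FPKM in Nr2f2 f/f, against 10.4 to 13.98 FPKM in Nr2f2 d/d. The genes of smallest p were those of the endocytic adaptor Dab2 (-0.32, adjusted p = 0.105), the kinase Fyn (-0.16, adjusted p = 0.193) and the exchange factor Rapgef1 (-0.10, adjusted p = 0.351). Of 16 tested genes of podoplanin and hyaluronan biology 2 fell at an adjusted p under 0.05, with 1.53% of all tested genes falling. Both encode enzymes that make hyaluronan, the ligand of LYVE1. Has2 fell from 2.91 to 3.67 FPKM to 0.491 to 1.86 FPKM (-1.41, adjusted p = 0.0304) and Has3 from 1.82 to 2.40 FPKM to 1.14 to 1.37 FPKM (-0.59, adjusted p = 0.0375). Tmem2, a hyaluronidase, was at -0.41 (adjusted p = 0.0952). Left out in turn, single libraries took Has2 over 0.05 in all but 2 of 8 fits (highest adjusted p of 0.0984) and Has3 in 8 of 8 (highest 0.122). Clec1b, which encodes the podoplanin receptor CLEC-2, had groups that overlapped (-0.30, adjusted p = 0.731; 0.02 without Nr2f2 d/d replicate 2).

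Smooth muscle, in whose layers uterine lymphatics lie, gave 0 of 9 markers past limma's threshold, adjusted or not, and a median of 0.11 (-0.03 with quantile normalization, -0.08 when Nr2f2 d/d replicate 4 was left out, 0.33 when replicate 1 was), with Cnn1 at 0.38 (adjusted p = 0.449), Lmod1 at 0.25 (0.619 adjusted) and Smtn at 0.17 (0.651 adjusted). These too depended on single mutants: without Nr2f2 d/d replicate 4 they were 0.15, 0.07 and 0.03, and without Nr2f2 d/d replicate 1 they were 0.59, 0.44 and 0.35, with unadjusted p of 0.0404, 0.1006 and 0.0419. Markers of B cells and lymph nodes, listed in case a node was attached, summed to 1.68 to 4.83 FPKM in Nr2f2 f/f, against 2.43 to 4.02 FPKM in Nr2f2 d/d. Only 2 of its 9 genes were abundant enough to test: Cd79b, part of the B cell receptor, rose (0.99, adjusted p = 0.0398, and under 0.05 in 1 of 8 fits with a library left out) and Glycam1 was at -1.08 (adjusted p = 0.205), and Ms4a1, Pax5 and Cr2 were under 0.1 FPKM in all 8 uteri.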

How the data were processed

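RNA of whole uterus was sequenced as 76-bp paired-end reads by the authors, trimmed with cutadapt 1.12, aligned to mm10 with STAR 2.5.2b and counted with featureCounts 1.5.0-p1, per the study's methods and processing notes, which also list Cufflinks 2.0.2. The authors deposited FPKM, fragments scaled to gene length and library total, for 24963 genes; the annotation, the strand setting and the FPKM formula are not given in the sources used here. The authors tested counts with DESeq2; that table of counts was not analysed here. Being relative to a library's total, FPKM of all genes shift when an abundant transcript changes.

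Groups and replicate numbers 1 to 4 came from the labels; beyond this numbering they do not say that libraries came from separate mice, and p-values then measure only the spread between these samples, which may be technical. Library totals were recovered from genes of 1 exon, at which 93.9% to 96.2% of low values became whole fragments within 0.05, and are approximate. Values were taken to log2 after adding 0.5. The 14323 genes that averaged 0.5 FPKM or more were fitted with limma 3.58.1 in R 4.3.3 (mean-variance trend, two-sided) and adjusted by the Benjamini-Hochberg method over all genes; Prox1 was taken from the fit of all 21070 genes with signal. Single genes were also compared by two-sided exact permutation tests, unadjusted for the 6 members. In simulated data for 14213 genes, changes were added on the log2(FPKM + 0.5) scale, and noise was drawn independently for each gene and library. There the fit recovered 79 of 100 genes changed 2-fold and 93 of 100 changed 4-fold, and 13 of 185 calls were unchanged genes. Genes of the real libraries deviate together, and low genes need a larger change in FPKM. These rates therefore need not hold for the data or for Prox1 and Reln. Tables were prepared with Python 3.11.15, and coordinates are those of GENCODE vM21.

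The members and the 15 other lists were chosen with earlier results of these data known, and the lists were written from general knowledge. Named genes were the members, Nr2f2, Pgr, the 3 genes of smallest p in each list, and the 3 tested genes nearest to each member in their deviations. Of the rule's 3 most abundant genes of each cell type list, Wt1, Cd34, Sox17, Cldn3 and Krt18 are also named. The others are given only within the sums of their list, unless they are named for another reason. Vegfd, Ackr4, Ramp3, Ccbe1, Col1a1, Col3a1, Hoxd3, Sox18, Foxc2, Cldn5, Cldn11, Stab2, Nts, Vldlr, Clec1b, Ccl21a, Ccl21b, Ccl21c, Ms4a1, Pax5 and Cr2 were named after their values were seen. Alternatives were other added values, filters, scalings, eBayes settings, the block, and each library left out; the sums without Krt19 or the collagens were added after seeing the data.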

Additional observations from a re-analysis of the deposited data

Results flagged for a closer look

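Of 112 groups of 4 uteri examined (56 genes, 2 genotypes), 8 held a uterus so far from the other 3 that its gap to the nearest, as a share of the group's range, passed Dixon's 95% critical value, and chance gives about 1 in 20. Among the 12 groups of the members there were 2. Both were the highest control: Vegfc in Nr2f2 f/f replicate 2, at 5.65 FPKM with the next control at 4.06, and Prox1 in the same uterus, at 0.568 FPKM with the next at 0.262. Mmrn1 passed it in that uterus too, at 4.23 FPKM with the next control at 1.69. The mutants held the other 5. Nr2f2 was lowest in Nr2f2 d/d replicate 3, at 6.90 FPKM, and Kdr was highest there, at 10.5 FPKM. Fyn (18.04 FPKM) and Dcn (673 FPKM) were lowest in Nr2f2 d/d replicate 2, and Bnc1 (1.76 FPKM) was lowest in Nr2f2 d/d replicate 4.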

How the results depend on the processing

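The direction and the side of the adjusted threshold of all 6 members were the same under the other added values (0.1 and 1), filters, scalings and eBayes settings, with either block and with each library left out, 105 values in all; the filter at a mean of 1 FPKM removes Prox1 and Reln. Members past the adjusted threshold stayed at 0. Members called at the study's threshold numbered 1 as reported, 0 with 1 added, 0 under the filter at 1 FPKM, and 0 with quantile normalization, where the p of Reln was 0.0501, and 0 to 1 with a library left out; without Nr2f2 d/d replicate 4 the 1 was Pdpn and not Reln. Log2 differences over all alternatives were -0.29 to -0.07 for Vegfc, 0.10 to 0.30 for Flt4, 0.21 to 0.61 for Prox1, 0.04 to 0.62 for Lyve1, 0.17 to 0.56 for Pdpn and 0.34 to 0.82 for Reln. Relative to the pan-endothelial mean, leaving out single libraries gave 0.22 to 0.47 for Vegfc, 0.66 to 0.84 for Flt4, 0.80 to 1.04 for Prox1, 0.59 to 1.08 for Lyve1, 0.78 to 1.16 for Pdpn and 0.92 to 1.22 for Reln.

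Over all genes, calls numbered 375 (156 higher and 219 lower), 192 higher and 172 lower after median-ratio scaling, which moved the median of all genes from -0.02 to 0.01, and 42 to 348 with a library left out, with 42 without Nr2f2 d/d replicate 2, 57 without Nr2f2 d/d replicate 1, and 62, 208 and 95 without Nr2f2 f/f replicates 1, 3 and 4. The replicate numbers of the titles were tried as a block, which left 1 gene past the adjusted threshold and 1243 at the study's threshold, beside 1260 without it. With the numbers inside the descriptions as the block, which pair 3 uteri of each group, 0 genes passed the adjusted threshold, 1317 were at the study's threshold, and 2 members were, Reln and Lyve1 (log2 difference 0.62, unadjusted p = 0.0359). Same-numbered uteri did not deviate together (correlations of -0.20 to 0.05 by the titles, and of -0.20, 0.15 and -0.04 by the descriptions). So few pairs cannot decide whether the numbers mark a shared origin, which the labels do not give. Without the filter on low values Kdr, Has3, Msln, Hand2, Col1a2 and Cd79b were at adjusted p of 0.0514 to 0.0715; Col1a2 also lost its call under the filter at 1 FPKM (0.0502) and with robust eBayes (0.0509), and Ramp2 gained one with quantile normalization (0.0360). List medians whose sign depended on 1 library were those of the transcription factors (-0.10 to 0.05), podoplanin and hyaluronan (-0.13 to 0.01), stroma (-0.13 to 0.01), smooth muscle (-0.08 to 0.33) and B cells (-0.19 to 0.91). Of genes that are no members, Clec1b turned sign without Nr2f2 d/d replicate 2 (log2 difference 0.0226; from -0.59 to 0.02 with a library left out). With 4 uteri a group the intervals stay wide, up to 1.00 for Lyve1 and 0.87 for Pdpn on the log2 scale, and Prox1 rests on as few as 113 fragments.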
